A study of Mus musculus with 8 samples.

Results

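The 8 genes described here are those commonly used to recognise the CD8+ dendritic cell of the mouse spleen: Batf3, Id2, Flt3, Ly75, Cd24a, Cd8a, Itgax and Itgae. They were followed in RNA from such cells kept in medium alone or with interferon-gamma (IFN-γ). Every probe set that the array's annotation assigns to 1 of these symbols was taken, and 8 of 8 genes had at least 1, for 10 probe sets in all, among 8251 genes with a single symbol on the array. Flt3 and Itgae had 2 probe sets each, and the other 6 genes had 1.

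CD8+ dendritic cells, also called cDC1, arise from bone marrow precursors that carry the receptor Flt3 and respond to its ligand, Flt3-L. Batf3, a basic leucine zipper factor that works with Jun and Irf8 proteins, and Id2, an inhibitor of E protein transcription factors, are needed for these cells to develop. The surface proteins of the set mark the cells in flow cytometry and take part in uptake and adhesion: Ly75 (DEC-205) is an endocytic receptor, Itgax (CD11c) and Itgae (CD103) are integrin alpha chains, Cd24a encodes a small glycosylated surface protein, and Cd8a encodes the CD8 alpha chain. CD8+ dendritic cells are known for cross-presentation, the display of captured antigen on MHC class I to CD8+ T cells.

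The cells came from spleens of DBA/2J female mice aged 60 days, and the donors of all 4 groups had been given Flt3-L over 9 days, 10 µg per the labels, so that no group shows the unexpanded state. They were incubated in medium alone or in 200 U/ml of mouse IFN-γ, for 4 hours or 16 hours, and each of the 4 groups was measured on 2 arrays, numbered 1 and 2 in the sample titles. Levels are log2 of the deposited intensity on an Affymetrix MG-U74Av2 array, so a difference of 1 is a doubling, and levels of different probe sets were not compared. Nothing in the labels ties arrays 1 and 2 of a group to different mice or cultures, so the p-values cover the spread between the arrays measured, part or all of which may be technical. Fewer cells of a type and less RNA per cell cannot be told apart in such bulk RNA.

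The 8 arrays were alike in median intensity, from 51.3 to 53.7, and 15 antisense control probe sets gave a background whose median log2 level ran from 5.49 to 5.93 across arrays. Arrays with the same number deviated together in every pair of groups, with correlations of 0.367 to 0.740 over all probe sets, so each test is given without and, where it changes a call, with the array number as a block. The SD over all probe sets of the difference between the arrays of a group was 0.17 and 0.18 at 4 hours, without and with IFN-γ, and 0.24 and 0.31 at 16 hours. The arrays of 16 hours in IFN-γ were thus farthest apart. The 3' to 5' ratio of Actb, a sign of RNA length, was 2.04 and 2.20 on the medium arrays at 4 hours and 1.47 to 1.68 on the other 6. Its part in any difference against the medium 4-hour group was not tested.

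Most of the genes were detected, which alone does not identify the cells, since markers of other cell types were detected too. Cd8a, Batf3, Cd24a, Id2 and Flt3 (probe set 95295_s_at) exceeded the brightest antisense control on 8 of 8 arrays, Ly75 on 5, and the second Flt3 probe set, 95296_r_at, on 3. Itgax exceeded the antisense median on 8 arrays and the brightest control on 0. Itgae was not detected: probe set 93961_at lay below the antisense median on all 8 arrays and below the dimmest control on 6, and probe set 161730_f_at lay below the dimmest control on 8. The log2 level of 93961_at ran from 4.04 to 4.55 and that of 161730_f_at from 3.17 to 3.57, so no differences of Itgae are read here.

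**Figure D1:**
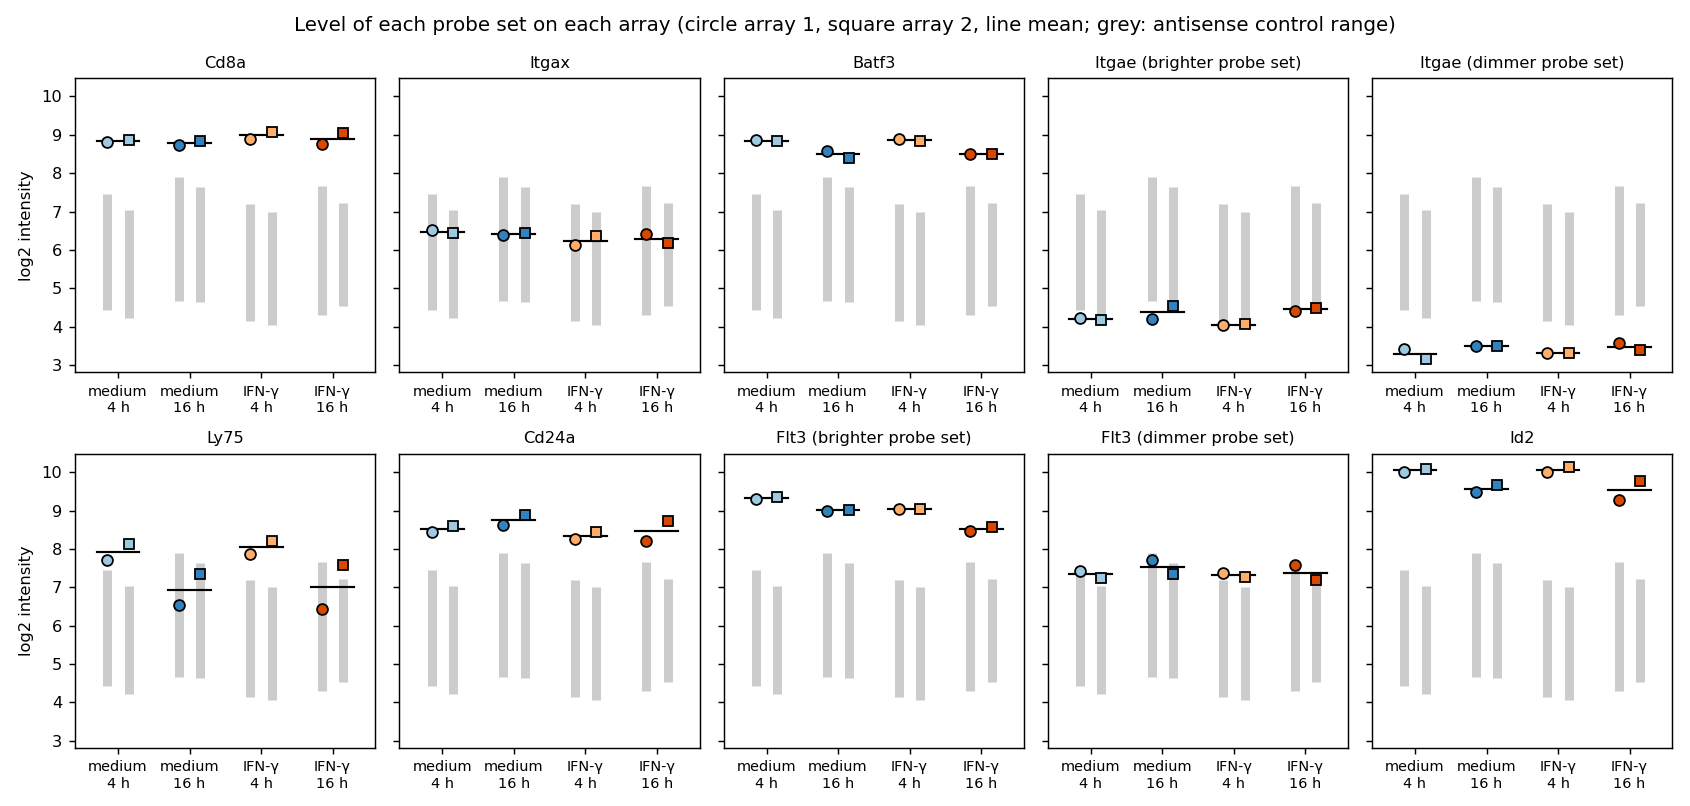
The log2 intensity (vertical axis) of each of the 10 probe sets on each array of the 4 groups (horizontal axis), with array 1 as a circle, array 2 as a square, the group mean as a line and the range of the 15 antisense controls of that array in grey; "brighter" and "dimmer" name the probe sets of Flt3 (95295_s_at, 95296_r_at) and Itgae (93961_at, 161730_f_at) by their mean. Flt3 in its brighter probe set steps down from medium at 4 hours to IFN-γ at 16 hours, Ly75, Id2 and Batf3 are lower at 16 hours than at 4 hours, and Itgae lies under the grey range on most arrays.

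The sequences before the start sites of the 4 genes whose levels were lower after 16 hours, Batf3, Id2, Ly75 and, in 1 of its probe sets, Flt3, are shown to place these genes in the genome and to show which factor motifs they hold. Each run is the 250 bases before the RefSeq start site in build GRCm38.p6, 5′ to 3′ on the strand of the gene. Batf3 is on the plus strand at chr1:191098164-191098413, Id2 on the minus strand at chr12:25096093-25096342, Flt3 on the minus strand at chr5:147400490-147400739 and Ly75 on the minus strand at chr2:60383274-60383523. Capitals mark, on either strand, the letters TTCNNNGAA of an interferon-gamma activated site, GAAANNGAA of an IRF site, TGANTCA of an AP-1 site and GAGGAA of a PU.1 core.
Batf3: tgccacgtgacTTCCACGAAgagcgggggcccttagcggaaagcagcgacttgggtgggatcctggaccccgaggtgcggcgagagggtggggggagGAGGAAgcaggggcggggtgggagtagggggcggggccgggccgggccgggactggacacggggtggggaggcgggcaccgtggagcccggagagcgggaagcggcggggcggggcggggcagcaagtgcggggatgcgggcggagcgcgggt
Id2: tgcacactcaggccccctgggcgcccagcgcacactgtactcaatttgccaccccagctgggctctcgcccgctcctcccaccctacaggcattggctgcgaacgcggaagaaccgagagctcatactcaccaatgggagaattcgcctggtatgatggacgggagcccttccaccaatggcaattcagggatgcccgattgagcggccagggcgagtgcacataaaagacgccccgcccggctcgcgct
Flt3: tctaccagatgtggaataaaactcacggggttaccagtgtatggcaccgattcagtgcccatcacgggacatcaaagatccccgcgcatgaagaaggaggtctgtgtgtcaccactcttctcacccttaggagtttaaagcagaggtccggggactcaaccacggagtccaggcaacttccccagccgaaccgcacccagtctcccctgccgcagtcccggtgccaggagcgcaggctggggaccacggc
Ly75: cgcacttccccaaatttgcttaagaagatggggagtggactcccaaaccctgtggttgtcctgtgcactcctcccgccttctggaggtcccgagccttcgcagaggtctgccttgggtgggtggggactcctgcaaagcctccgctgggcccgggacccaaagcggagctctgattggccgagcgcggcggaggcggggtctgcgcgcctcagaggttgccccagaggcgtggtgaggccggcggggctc
In Batf3, TTCCACGAA begins at position -239 from the start site and GAGGAA at -153, and the windows of Id2, Flt3 and Ly75 held none of the 4 motifs. Over the 32851 promoter windows of the same length, TTCNNNGAA was found in 7.02%, GAAANNGAA in 7.13%, TGANTCA in 6.75% and GAGGAA in 23.3%. The E-box letters CANNTG, to which E proteins bind and which are not in capitals, were found in 66.2% of windows; they occurred at -247 and -30 in Batf3, at -196 in Id2 and at -245 in Flt3. No matches overlapped. RefSeq windows were at hand for 6 of 8 genes, all but Cd24a and Itgae. Of those not shown, Itgax held TGAGTCA at -56 and Cd8a the PU.1 core, as TTCCTC, at -130. A match describes letters only.

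Flt3 was the gene of the set with the clearest difference between IFN-γ and medium. In probe set 95295_s_at its log2 level was 9.30 and 9.36 in medium at 4 hours, 9.05 and 9.05 in IFN-γ at 4 hours, 8.98 and 9.02 in medium at 16 hours, and 8.47 and 8.58 in IFN-γ at 16 hours. The arrays of all 4 groups were separate in that order, with steps between group means of 0.28, 0.05 and 0.47. At 16 hours Flt3 in IFN-γ differed from medium by -0.47 (SE 0.10), and it fell only in the fit with the block: the adjusted p of limma was 0.226 without the block and 0.0386 with it. Within array numbers 1 and 2 the difference at 16 hours was -0.51 and -0.44.

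At 4 hours the difference of Flt3 in 95295_s_at was -0.28 (SE 0.10), with an adjusted p in limma of 0.894, or 0.283 with the block, and within the array numbers it was -0.25 and -0.31. The 16-hour difference exceeded that at 4 hours by -0.20 (SE 0.15, adjusted p in limma 1.0, with the block 0.979), so the effects at both times were not shown to differ. Over both times together the IFN-γ effect on Flt3 was -0.38 (SE 0.08), with a limma adjusted p of 0.0714 and, with the block, 0.0171. Flt3 was lower on 4 of 4 IFN-γ arrays than on the medium array of the same number and time. How many of all probe sets show 1 direction in this way was not counted, so it describes the arrays only. Lower Flt3 in IFN-γ at 16 hours passed the test only with the block. The summed intensity of macrophage markers was lower in IFN-γ as well. It was 1775 and 1813 in medium against 1340 and 1342 in IFN-γ at 4 hours, and 4563 and 5372 against 3329 and 4125 at 16 hours. A sum is weighted toward its brightest genes. The median log2 difference of the 12 measured markers was -0.05 at 4 hours and -0.26 at 16 hours. Without the block 0 of these markers were called at either time. With the block, where Flt3 was called at 16 hours, 2 of the markers fell at 4 hours and 3 at 16 hours. Mrc1, below the antisense median on all arrays, was among those at 16 hours. The part of macrophages in the difference of Flt3 was not tested.

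The second Flt3 probe set, 95296_r_at, gave another picture. Its log2 level was 7.44 and 7.25 in medium at 4 hours, 7.38 and 7.27 in IFN-γ at 4 hours, 7.71 and 7.34 in medium at 16 hours, and 7.58 and 7.18 in IFN-γ at 16 hours. These groups overlapped throughout. Its IFN-γ differences were -0.01 (SE 0.17) at 4 hours and -0.14 (SE 0.17) at 16 hours, neither past the test, so the probe sets of Flt3 disagreed in size and the lower values rest on 95295_s_at.

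Among the other 6 detected genes, 0 were called for IFN-γ at either time. Batf3 differed by 0.03 (SE 0.11) at 4 hours and 0.01 (SE 0.11) at 16 hours, with intervals of -0.22 to 0.27 and -0.24 to 0.26. Id2 differed by 0.01 (SE 0.16) and -0.05 (SE 0.16), and Ly75 by 0.11 and 0.07 with an SE of 0.36 each. For Ly75 the spread between arrays leaves intervals of -0.71 to 0.93 and -0.75 to 0.89. A doubling lies just outside them and a halving farther outside. These intervals are from the fit without the block. With the block the SE of Ly75 was 0.17.

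Cd8a was slightly higher with IFN-γ and Cd24a and Itgax slightly lower, none past the test. Cd8a differed by 0.14 (SE 0.13) at 4 hours and 0.11 (SE 0.13) at 16 hours. Cd24a differed by -0.17 (SE 0.17) and -0.29 (SE 0.17), with a block adjusted p in limma of 0.536 at 16 hours, and Itgax by -0.23 (SE 0.12) and -0.12 (SE 0.12). All arrays of Cd24a in IFN-γ at 4 hours, 8.26 and 8.43, lay below those in medium, 8.44 and 8.59, and at 16 hours the groups overlapped.

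Set against all probe sets, IFN-γ called few. Of 12422 probe sets, 0.258% rose and 0% fell at 4 hours, or 1.09% and 0.177% with the block, and 0 of the 10 probe sets of the identity genes were among them in either fit. At 16 hours 0.161% rose and 0.0966% fell without the block, and 0.411% and 0.435% with it, and Flt3 was the 1 member called, with the block only. At an unadjusted p under 0.05, limma gave 1 of the 10 at each time, Flt3 in 95295_s_at, against 499 and 426 of all probe sets. The difference between the effects at both times called 0% in each direction without the block, and with it 0% rose and 0.242% fell, with 0 of the 10 among them. Over both times 0.362% rose and 0.169% fell, or 0.708% and 0.555% with the block, and again only Flt3 was called, with the block. The median difference of the 10 probe sets was -0.00 at 4 hours and -0.04 at 16 hours, beside -0.01 and -0.00 for all probe sets.

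**Figure D2:**
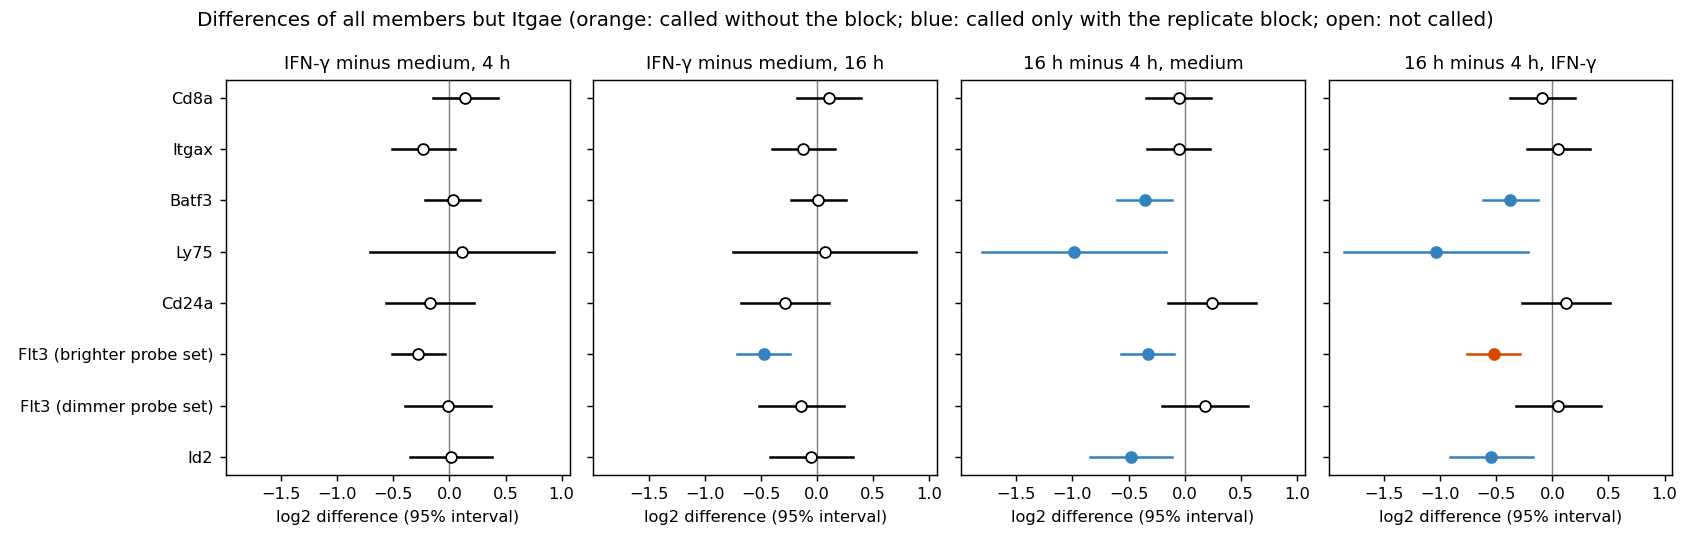
The log2 difference (horizontal axis, point, with its 95% interval from the fit without the block) of the 8 probe sets of all genes but Itgae in 4 comparisons, 1 panel each. Orange marks an adjusted p under 0.05 without the block, blue 1 with the block only, and open points neither; Flt3 is blue for IFN-γ at 16 hours, and Batf3, Ly75, Id2 and Flt3 (brighter probe set) lie left of 0 in both time panels.

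With the block, more of these genes were called for time in culture than for IFN-γ. The same held for all probe sets: 8.09% fell with time in medium and 6.94% in IFN-γ. With IFN-γ 0.177% fell at 4 hours and 0.435% at 16 hours. Without the block, the 10 probe sets held 0 calls for time in medium, 1 for time in IFN-γ and 0 for IFN-γ at 4 or 16 hours. Ly75, Id2, Batf3 and Flt3 in 95295_s_at were lower after 16 hours than after 4 hours in medium and in IFN-γ. The 16-hour arrays of these 4 probe sets all lay below the 4-hour arrays of the same treatment, which did not hold for Flt3 in 95296_r_at. How many of all probe sets separate in this way, with time or with IFN-γ, was not counted. Such separations therefore describe the arrays only.

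Batf3, the transcription factor required for this lineage, had log2 levels of 8.86 and 8.83 in medium at 4 hours and 8.58 and 8.40 at 16 hours, and of 8.90 and 8.85, then 8.49 and 8.50, in IFN-γ. All 4 arrays at 4 hours stood above all 4 at 16 hours. The difference was -0.36 (SE 0.11) in medium and -0.37 (SE 0.11) in IFN-γ. Adjusted p-values in limma were 0.119 and 0.132, and 0.0305 and 0.0282 with the block.

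Id2 had log2 levels of 10.01 and 10.09 in medium at 4 hours and 9.48 and 9.66 at 16 hours, and of 10.01 and 10.12, then 9.27 and 9.78, in IFN-γ. The times did not overlap, and the 16-hour IFN-γ arrays stood 0.51 apart. Id2 differed by -0.48 (SE 0.16) in medium and -0.54 (SE 0.16) in IFN-γ, with limma adjusted p-values of 0.162 and 0.145, or 0.0214 and 0.0143 with the block.

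Ly75, the endocytic receptor, showed the largest differences of the set and the largest spread. Its log2 levels were 7.71 and 8.14 in medium at 4 hours and 6.54 and 7.33 at 16 hours, and 7.87 and 8.21, then 6.43 and 7.58, in IFN-γ. Array 2 was higher than array 1 in all 4 groups, and each 16-hour array was still below both 4-hour arrays. Ly75 differed by -0.99 (SE 0.36) in medium and -1.03 (SE 0.36) in IFN-γ. Within array number 1 these differences were -1.17 and -1.44, and within number 2 they were -0.80 and -0.62. Limma's adjusted p-values were 0.197 and 0.218 without the block and 0.00408 and 0.00438 with it.

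Flt3 in 95295_s_at differed between 16 and 4 hours by -0.33 (SE 0.10) in medium and -0.52 (SE 0.10) in IFN-γ. In IFN-γ it fell in both fits, with adjusted p-values in limma of 0.0385 and, with the block, 0.00522. In medium it fell only with the block, at 0.0367 against 0.135. The call in IFN-γ without the block was lost on leaving out any 1 array other than array 2 of IFN-γ at 16 hours, with adjusted p-values of 0.0261 to 0.322 over the 8 arrays. It was also lost in a fit of the 4 IFN-γ arrays alone, at 0.151.

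Cd8a, Itgax and Cd24a were not called for time in either fit. Cd8a had log2 levels of 8.83 and 8.88 in medium at 4 hours, 8.74 and 8.85 at 16 hours, 8.90 and 9.08 in IFN-γ at 4 hours, and 8.77 and 9.04 at 16 hours. Neighbouring groups of Cd8a overlapped throughout, and the time differences were -0.05 (SE 0.13) in medium and -0.09 (SE 0.13) in IFN-γ. Itgax had 6.51 and 6.44 in medium at 4 hours, 6.40 and 6.45 at 16 hours, 6.13 and 6.36 in IFN-γ at 4 hours, and 6.40 and 6.19 at 16 hours. Its IFN-γ arrays at 4 hours lay below those in medium, while the times overlapped, with differences of -0.05 and 0.05 (SE 0.12 each).

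Cd24a had its highest array in medium at 16 hours, 8.62 and 8.89 beside 8.44 and 8.59 at 4 hours, which did not overlap, and in IFN-γ it had 8.26 and 8.43 at 4 hours and 8.22 and 8.72 at 16 hours. Its time differences were 0.24 (SE 0.17) in medium and 0.12 (SE 0.17) in IFN-γ. The second Flt3 probe set, 95296_r_at, differed by 0.18 and 0.05 (SE 0.17 each), in the direction opposite to 95295_s_at.

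Time also moved a larger share of the array, against which the members have to be read. In medium 1.71% of probe sets rose and 2.57% fell, and 4.52% and 8.09% with the block, and of the 10 member probe sets 0 were called without the block and 4 fell with it. At an unadjusted p under 0.05 limma gave 4 of the 10 and 2013 of all probe sets. In IFN-γ 0.821% rose and 1.3% fell without the block, and 1 of the 10 fell, Flt3. With the block 3.2% rose and 6.94% fell, and of the 10, 4 fell and 1, the undetected Itgae probe set 93961_at, passed upward. The median difference of the 10 was -0.05 in medium and -0.02 in IFN-γ, while that of all probe sets was 0.05 in both.

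The size of these time differences depended on the scaling. The brightest 20% of all probe sets, to which those of all the members but Itgax and Itgae belong, had a median time difference of -0.08 in medium and -0.05 in IFN-γ, and of 0.00 and 0.02 after quantile normalization, an alternative scaling. With quantile normalization and the block together, chosen after the data were seen, the difference in medium was -0.23 for Batf3 (limma adjusted p 0.137), -0.20 for Flt3 (0.166) and -0.31 for Id2 (0.0545), none called, while Ly75 at -0.95 (0.00445) stayed called and Cd24a at 0.35 (0.0315) became called. In IFN-γ the same setting gave -0.44 for Flt3 (0.00776), -0.44 for Id2 (0.0117) and -1.0 for Ly75 (0.00432), all called, and -0.30 for Batf3 (0.0629), which was not.

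When both treatments entered an additive fit of time and treatment, a comparison added after the data were seen, 4 of the 10 probe sets fell and 0 rose. Among all probe sets 3.98% rose and 7.64% fell, or 8.74% and 13.1% with the block, which added only the undetected Itgae probe set 93961_at among the members. Flt3 in 95295_s_at differed by -0.43 (SE 0.08, limma adjusted p 0.00508), Batf3 by -0.37 (SE 0.07, 0.00827), Id2 by -0.51 (SE 0.11, 0.0119) and Ly75 by -1.01 (SE 0.24, 0.0201). With the block all 4 had smaller adjusted p-values, from 9.81e-05 for Ly75 to 0.00166 for Batf3. Flt3, Id2 and Batf3 stayed called with any 1 array left out. Ly75 did not without array 2 of medium at 4 hours (adjusted p 0.0733), array 1 of medium at 16 hours (0.0684) or array 2 of IFN-γ at 4 hours (0.0677). Under quantile normalization without the block Batf3 missed the threshold, at 0.0506.

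Array 2 was higher than array 1 for most of the members. The difference of array 2 minus array 1 was above 0 in 4 of 4 groups for Ly75, Cd24a, Id2, Cd8a and Flt3 in 95295_s_at, and below 0 in 4 of 4 for Flt3 in 95296_r_at. For Ly75 it was 0.42 in medium and 0.34 in IFN-γ at 4 hours, and 0.79 and 1.16 at 16 hours. Cd24a gave 0.14 and 0.17 at 4 hours and 0.27 and 0.50 at 16 hours, and Id2 gave 0.08 and 0.11, then 0.18 and 0.51. The time difference of Cd24a in IFN-γ, 0.12, was thus smaller than the gap between the arrays within either of its groups.

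**Figure D3:**
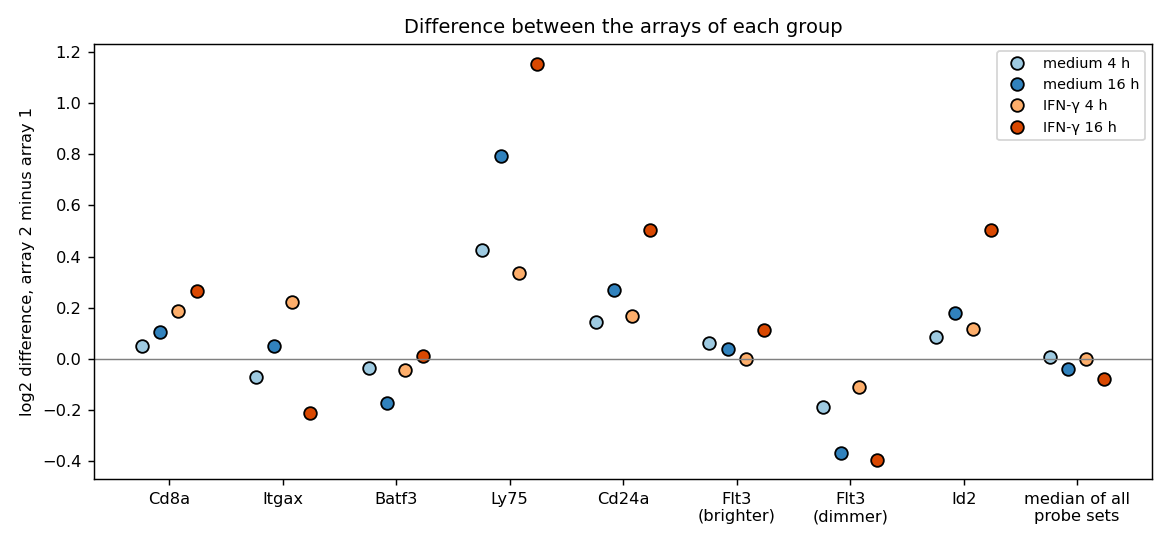
The log2 level on array 2 minus that on array 1 (vertical axis) in each of the 4 groups (colours), for the 8 probe sets of all genes but Itgae and for the median of all probe sets (horizontal axis). Ly75 has the largest values, up to 1.16 in IFN-γ at 16 hours, and Ly75, Cd24a, Id2 and Cd8a lie above 0 in every group.

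Genes with profiles most like those of the members were sought among 4818 genes above the antisense median, by the root mean square difference of the centred log2 profiles over the 8 arrays. Nearest to Flt3 in 95295_s_at were Prnp at 0.09, C1qtnf12 at 0.10 and Gsto1 at 0.11, where the median gene was at 0.31. Prnp encodes the prion protein and Gsto1 a glutathione transferase. Prnp ran from 8.33 and 8.61 in medium at 4 hours to 7.55 and 7.79 in IFN-γ at 16 hours, so that, like Flt3, it was highest in the first group and lowest in the last. For the 3 genes called only in the added comparison or with the block, the nearest were Supv3l1 (0.03), Cdc45 (0.04) and Ifi30 (0.05) for Batf3, Kpnb1 (0.04), Rsl1d1 (0.05) and Crybg1 (0.05) for Id2, and Rbbp7 (0.14), Atp11a (0.16) and Prmt1 (0.17) for Ly75. Rbbp7, chosen for likeness over the same arrays, was 7.74 and 8.63 on the IFN-γ arrays at 16 hours.

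**Figure D4:**
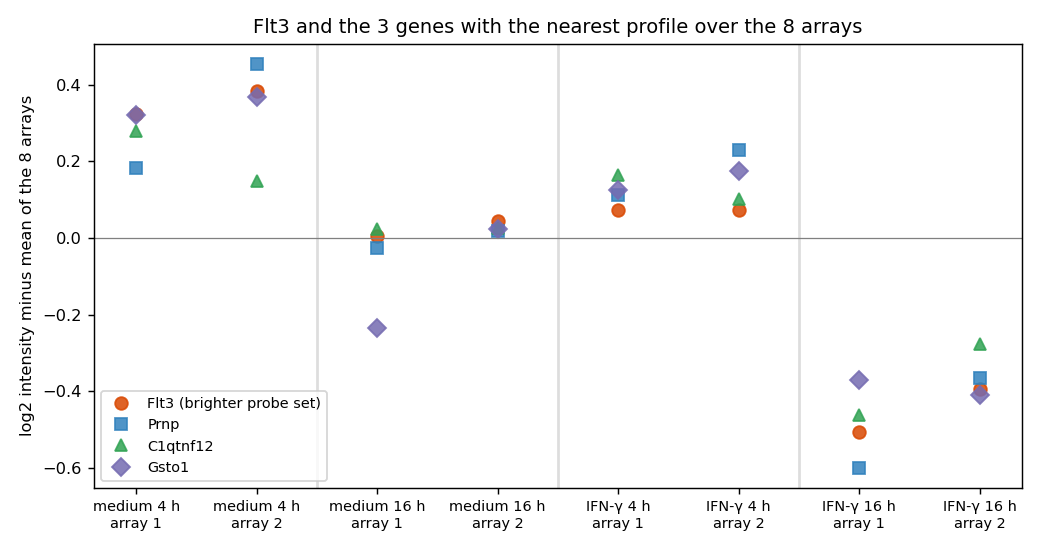
The log2 intensity minus the mean of the 8 arrays (vertical axis) on each array (horizontal axis) for Flt3 in its brighter probe set, 95295_s_at, and for Prnp, C1qtnf12 and Gsto1. By group mean all 4 genes are highest in medium at 4 hours and lowest in IFN-γ at 16 hours, and Flt3 is at 9.30 and 9.36 in the first and 8.47 and 8.58 in the last before centring.

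Other genes of the CD8+ dendritic cell were taken from a list of 28, of which 15 were measured. Irf8, the factor that acts with Batf3 in this lineage, was the 1 gene of the list called for IFN-γ: its group mean was 10.03 in medium and 10.64 in IFN-γ at 4 hours, and 9.56 and 10.39 at 16 hours. Irf8 rose by 0.82 (SE 0.10, limma adjusted p 0.0158) at 16 hours, and at 4 hours by 0.61 (SE 0.10) with the block, at 0.00892 against 0.0612 without it. With time Irf8 fell by 0.47 in medium (limma adjusted p 0.0385). Cst3, which encodes cystatin C, a protease inhibitor abundant in these cells, fell with time over both treatments by 0.56 (SE 0.10, 0.0055). Zbtb46, a factor of conventional dendritic cells, had group means of 4.24 to 4.74, below the antisense median, and Xcr1, a chemokine receptor of these cells, had 5.46 to 5.78, close to it. Over this list 0 rose and 0 fell at 4 hours and 1 rose and 0 fell at 16 hours, with a median IFN-γ difference of 0.01 and 0.04 beside -0.01 and -0.00 over all genes. Time in medium gave 0 up and 1 down, or 0 and 3 with the block. Time in IFN-γ gave 0 and 0, or 1 and 2 with the block. Over both treatments, the comparison added after the data were seen, 0 rose and 3 fell, or 1 and 4 with the block. Median time differences were 0.06 and 0.05 beside 0.04 and 0.04, with 5 of the 15 genes below the antisense median on all arrays. Summed intensity was 8082 to 8604 in medium and 8795 to 9060 in IFN-γ at 4 hours, and 6445 to 6964 and 6465 to 7545 at 16 hours.

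Partners of Flt3 in growth factor signalling, 17 measured of 18, held 1 call with time in medium and 1 in IFN-γ: Csf1r, the receptor for macrophage colony-stimulating factor and a close relative of Flt3, rose by 1.0 (SE 0.15, limma adjusted p 0.00821) in medium and 1.24 (SE 0.15, 0.0051) in IFN-γ. Over both times Csf1r fell with IFN-γ by 0.61 (SE 0.10, 0.0315). Stat3, Stat5a, Akt1 and Kit fell in medium with the block only, by 0.32, 0.36, 0.47 and 0.33. With time in IFN-γ 0 genes of the list fell in either fit. The list's median differences with time were -0.06 in medium and -0.03 in IFN-γ, beside 0.04 in both over all genes.

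Id3, the relative of Id2, differed with time in the opposite direction: it rose in medium by 0.45 (SE 0.10, limma adjusted p 0.0462) and in IFN-γ by 0.47 with the block (0.00967, or 0.0599 without it). Over both times Id3 fell with IFN-γ by 0.40 (SE 0.07, limma adjusted p 0.0355, or 0.00785 with the block). Of the 6 Id and E protein genes 1 rose and 0 fell with time in medium. Fos was the 1 call of the 9 Batf, Jun and Fos family genes in medium, upward (limma adjusted p 0.043), but it exceeded the antisense median on 1 of 8 arrays and gives no measured difference. Irf4 fell over both treatments by 0.40 (SE 0.09, limma adjusted p 0.0164).

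Of 9 measured integrin relatives and partners, few were called with time, and Itgax itself was not. Itgb2, the beta chain that pairs with Itgax, rose by 0.68 (SE 0.12, limma adjusted p 0.0183) in medium and 0.74 (SE 0.12, 0.0197) in IFN-γ, and it exceeded the brightest antisense control on 8 arrays. Itgam (CD11b) was also called upward in medium (limma adjusted p 0.00858), from arrays of 5.17 and 5.36 below the antisense median at 4 hours to 6.24 and 6.53 at 16 hours, so its difference has no measured baseline. Calls upward were 2 of 9 in medium and 1 in IFN-γ, with 0 falling in either, and the median differences were 0.02 and 0.19 beside 0.04 in both over all genes. Itgb7, the beta chain that pairs with Itgae, was detected, at group means of 9.47 to 9.91, while Itgae was not. Of 3 measured genes of the mannose receptor family, to which Ly75 belongs, Mrc1 passed upward in medium (limma adjusted p 0.00677), though it lies below the antisense median at group means of 2.71 to 3.65.

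Markers of other cell types were measured beside these results. T cell genes, which matter for Cd8a, were present: 11 of 12 measured exceeded the antisense median on all arrays and 6 of them, Cd3d, Cd3g, Zap70, Cd2, Thy1 and Cd6, exceeded the brightest control on all. Cd8b1, the CD8 beta chain of T cells, had group means of 7.54 to 7.84. Summed T cell marker intensity ran from 3045 to 3234 in medium and 3010 to 3117 in IFN-γ at 4 hours, and from 2928 to 3097 and 2971 to 3262 at 16 hours. These ranges overlapped. The Cd8a arrays in IFN-γ at 4 hours lay above all 4 medium arrays. Cd8b1 differed with IFN-γ by 0.28 (SE 0.12) at 4 hours and -0.05 (SE 0.12) at 16 hours, and was not called at either time in either fit. The median IFN-γ difference of the 12 T cell genes was 0.02 at 4 hours and 0.05 at 16 hours, beside -0.01 and -0.00 over all genes. The part of T cell RNA in the level of Cd8a was not tested.

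Macrophage markers rose with time in fits where, without the block, 0 members fell in medium and only Flt3 fell in IFN-γ. Of 12 measured, 10 rose and 1, Spic, fell in medium, and 8 rose and 1 fell in IFN-γ, or 10 and 1, and 9 and 1, with the block, where Flt3, Ly75, Id2 and Batf3 fell. Spic exceeded the antisense median on only 3 arrays. C1qc, a chain of complement C1q that exceeded the brightest antisense control on 8 arrays, rose by 1.73 (SE 0.11, limma adjusted p 0.000178) in medium and 1.77 (SE 0.11, 0.000206) in IFN-γ. Summed macrophage intensity, given beside Flt3, was higher on every 16-hour array than on every 4-hour array. With IFN-γ, 0 of the 12 were called at 4 or at 16 hours, 2 and 3 fell with the block, and over both times 3 fell, or 5 with the block. Of the 12, 2 were below the antisense median on all arrays, and 4 exceeded the brightest control on all.

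Of 10 B cell markers, 1 rose with time in medium and 3 in IFN-γ, or 4 and 9 with the block, and 0 fell. Blnk rose by 0.48 (SE 0.11, limma adjusted p 0.0408) in medium and 0.65 (SE 0.11, 0.0198) in IFN-γ. In the comparison over both treatments, added after the data were seen, 7 of 10 rose. Cr2, which exceeded the antisense median on 0 arrays, is among these 7 and among the 9 in IFN-γ with the block. The summed intensity of the 10 markers was 3025 to 3422 in medium and 2583 to 2703 in IFN-γ at 4 hours, and 3583 to 3818 and 3790 to 4076 at 16 hours. Cd24a is also a B cell gene, and the part of B cells in its level was not tested.

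Of 8 measured markers of the CD8- (CD11b+) dendritic cell, 1 rose and 1 fell in medium, and 0 rose and 1 fell in IFN-γ. The falling gene was Relb, a factor of the NF-kappaB family, by 0.72 (SE 0.14, limma adjusted p 0.0221) in medium and 0.70 (SE 0.14, 0.0361) in IFN-γ. The rising gene was Itgam, by 1.12 in medium, from arrays below the antisense median at 4 hours. With the block 2 rose and 3 fell in each treatment. Sirpa was among the rising genes there, by 0.55 in medium (limma adjusted p 0.015) and 0.56 in IFN-γ (0.0166). The list's median time differences were 0.01 in medium and 0.15 in IFN-γ, beside 0.04 in both over all genes. Summed over the list, intensity was 2108 to 2261, 1870 to 1938, 1925 to 2025 and 1613 to 1784, in the order medium at 4 and 16 hours and IFN-γ at 4 and 16 hours. This sum too is weighted toward its brightest genes. Plasmacytoid dendritic cell markers (7 measured), NK cell markers (7) and neutrophil markers (9) held at most 1 call in any of these time comparisons. Among the 5 erythroid genes 2 fell with time in both treatments, with differences of -1.15 (SE 0.11) in medium and -0.82 (SE 0.11) in IFN-γ for Hba-a1. The other, Hbb-b2, exceeded the antisense median on 0 arrays. The part of these cell types in the time differences of Flt3, Ly75, Id2 and Batf3 was not tested.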

How the data were processed

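RNA of 8 samples, 2 in each of 4 groups taken from the sample titles, was hybridised to Affymetrix MG-U74Av2 arrays. The authors deposited 1 intensity per probe set and array on a linear scale; RMA is the tool in the submitters' processing notes, and its version is not given in the sources used here. Log2 of the deposited intensity was taken with no pseudocount and no further scaling. The 66 array controls among the 12488 probe sets were dropped, and symbols came from the platform annotation, where 10833 probe sets have 1 symbol, 396 several and 1193 are unlisted. Old symbols were not changed for the 8 genes, all of which matched RefSeq by gene number.

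Differences were tested two-sided with limma 3.58.1 in R 4.3.3, with 1 mean per group fitted to the 8 arrays together, and in an additive fit for effects over both times or treatments. Benjamini-Hochberg adjustment ran over the 12422 probe sets left, and differences were called under 0.05. Intervals are at 95% and unadjusted. The array numbers pair the arrays, from their correlated deviations and not from a label, so the number as a block is the other fit. The statistics were tested on simulated data. All probe sets of the 8 genes were named, with the 3 nearest profiles of each called gene and at most 4 called genes of each list. Chosen after their values were seen were Kit, a few uncalled list genes (Zbtb46, Xcr1, Itgb7, Cd8b1) and the bright T cell markers. Each listed gene is represented by its brightest probe set. Promoter windows came from RefSeq tables. The members and the 14 gene lists were chosen with earlier results of these data known. Alternatives changed the scaling (quantile normalization or median centring), the probe sets (without the dimmest 40%, or 1 mean per gene), the prior (trended and robust), the arrays (those compared only, or each left out), the threshold (0.01, or a log2 difference of 1) and the pseudocount (16), and added the block. Added after the data were seen were the time effect over both treatments, quantile normalization with the block, and a fit without the 16-hour arrays of number 1.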

Additional observations from a re-analysis of the deposited data

How the results depend on the processing

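With 2 arrays a group, 1 of them can decide a call, and Ly75, Cd24a and Id2 differed widely between the array numbers at 16 hours. Itgae could not be assessed, since both its probe sets lay at background.

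With the replicate block, which pairs arrays of the same number, 1 of the 10 member probe sets was called for IFN-γ at 16 hours, 4 for time in medium, 5 for time in IFN-γ and 1 for IFN-γ over both times, where the fit without it called 0, 0, 1 and 0. With the block and quantile normalization together these were 1, 2, 3 and 1. The block changed no member's call at 4 hours or in the difference of IFN-γ effects.

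For time in medium, a fit of the 4 arrays compared called 1 and a pseudocount of 16 called 2, and leaving out each array in turn gave 0 to 2. For time in IFN-γ, 0 were called in the fit of the 4 arrays compared, at an adjusted p under 0.01, at a log2 difference of at least 1, with 1 mean value per gene, and without the 16-hour arrays of number 1, where the limma adjusted p of Flt3 was 0.0779. Leaving out each array in turn gave 0 to 3 there. For IFN-γ over both times 1 was called without the dimmest 40% of probe sets and 1 with a pseudocount of 16. For time over both treatments, where 4 were called, 2 had an adjusted p under 0.01 and 1 a log2 difference of at least 1, 3 were called with 1 mean value per gene and 6 without the 16-hour arrays of number 1, and with a pseudocount of 16 Ly75 missed the threshold, at 0.0522.

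Signs that turned belonged to differences that passed no test. Under quantile normalization, with and without the block, Batf3 at 16 hours of IFN-γ became -0.020 and Cd8a with time in medium 0.071. Without the 16-hour arrays of number 1, Id2 at 16 hours of IFN-γ became 0.11 and Flt3 in 95296_r_at with time in medium -0.0042, and with time in IFN-γ Cd8a became 0.044, Itgax -0.052 and that Flt3 probe set -0.14. With each array left out in turn, the IFN-γ difference at 4 hours ran from -0.10 to 0.32 for Ly75, -0.11 to 0.082 for Flt3 in 95296_r_at and -0.044 to 0.070 for Id2. At 16 hours it ran from -0.027 to 0.24 for Cd8a, -0.078 to 0.098 for Batf3, -0.51 to 0.64 for Ly75, -0.34 to 0.058 for Flt3 in 95296_r_at and -0.30 to 0.20 for Id2. The difference with time ran from -0.0042 to 0.37 in medium for Flt3 in 95296_r_at, and in IFN-γ from -0.22 to 0.044 for Cd8a, -0.057 to 0.17 for Itgax, -0.13 to 0.37 for Cd24a and -0.14 to 0.25 for Flt3 in 95296_r_at. The time and IFN-γ differences of Flt3 in 95295_s_at and the time differences of Batf3, Id2 and Ly75 kept their sign under every alternative run. The cause of these changes was not tested.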
